A study of Mus musculus with 6 samples.

Results

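The pentose phosphate pathway branches off glycolysis at glucose 6-phosphate, and its enzymes are described here in heart muscle cells with and without TFEB. The 8 enzymes, chosen by name, were G6pdx, Pgls, Pgd, H6pd, Rpia, Rpe, Tkt and Taldo1, out of 46450 gene symbols in the deposited table. Each of the 8 had its own entry, and all 8 passed the filter on low values. The samples were cardiomyocytes isolated from hearts of C57BL/6 mice aged 3 months, with 3 TFEB-/- and 3 wild type libraries of mRNA. TFEB is a transcription factor of lysosomal and autophagy genes. The labels give neither the allele nor the promoter behind the TFEB-/- genotype, and they state no sex, litter, batch or link from a library to its own animal. The p-values below therefore measure the spread between these libraries, which may in part be technical.

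The oxidative branch turns glucose 6-phosphate into ribulose 5-phosphate and yields NADPH, the electron donor for lipid synthesis and for recycling of glutathione and thioredoxin. The non-oxidative branch interconverts sugar phosphates, makes ribose 5-phosphate for nucleotides, and returns carbon to glycolysis as fructose 6-phosphate and glyceraldehyde 3-phosphate. In heart muscle the pathway is known mainly as a source of NADPH for antioxidant defence, beside the NADP-dependent dehydrogenases of the mitochondria.

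Values are in CPM, counts scaled to a common library total, as the name of the deposited table gives the unit, and rounded to whole numbers. The number of reads behind a value is unknown. Library sums lay between 999505 and 999655 CPM. Tfeb was at 6, 5 and 7 CPM in the TFEB-/- libraries, against 17, 30 and 23 CPM in the wild type libraries (log2 fold change −1.85, SE 0.24, limma adjusted p = 0.0267). Tfeb passed in 12 of 18 alternative settings. It held without wild type 1 (0.0261), and did not pass without TFEB-/- 1 (0.116), TFEB-/- 2 (0.0763), TFEB-/- 3 (0.108), wild type 2 (0.0604) or wild type 3 (0.110), nor with the replicate number as a block (0.112), all with a log2 fold change of −1.65 or lower. All 8 cardiomyocyte markers examined were present, and their summed level was 63163 to 83078 CPM in TFEB-/- and 53264 to 75033 CPM in wild type. Transcripts of the mitochondrial genome took up 25.9 ± 4.06% of TFEB-/- libraries and 36.4 ± 7.28% of wild type libraries (SD, n = 3 each). The median log2 fold change over all 12437 tested genes was 0.24, and after scaling each library by its median ratio to the other libraries it was 0.01, so each enzyme is also placed relative to that median.

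Both enzymes that passed the test were higher in TFEB-/- cardiomyocytes, Pgd of the oxidative branch and Tkt of the non-oxidative branch. The share of all tested genes that passed an adjusted p below 0.05 (limma with Benjamini-Hochberg adjustment over all tested genes) was 4.44%, with 3.92% higher and 0.523% lower. Of the 8 enzymes, 2 were higher, 0 were lower and 6 did not pass, and the same 2 were the only ones with an unadjusted p below 0.05, which 23.3% of all tested genes had. In the same 2 enzymes every TFEB-/- value lay above every wild type value, as it did in 21.2% of all tested genes. With median ratio scaling the same 2 were again higher, against 3.87% of all tested genes. The median log2 fold change of the 8 was 0.29, against 0.24 over all tested genes, and 5 of the 8 lay above the median of all genes.

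Sequence just upstream of the RefSeq transcription start (GRCm38.p6) is shown for Pgd and Tkt because they are the enzymes that passed, and a shorter stretch for G6pdx because it holds a match to the core of the antioxidant response element, the motif bound by NRF2. Lines run 5′ to 3′ on the strand of the gene. The gene spans given below, from GENCODE M21, begin further upstream than these RefSeq starts. The Tkt and G6pdx stretches lie inside those spans, and the Pgd stretch lies partly inside. Capitals mark GC boxes (GGGCGG, either strand) in Tkt, GC boxes and CCAAT boxes (CCAAT, either strand) in Pgd, and in G6pdx the match to TGACNNNGC, which there lies on the opposite strand.
Pgd, chr4:149166706-149166855, minus strand: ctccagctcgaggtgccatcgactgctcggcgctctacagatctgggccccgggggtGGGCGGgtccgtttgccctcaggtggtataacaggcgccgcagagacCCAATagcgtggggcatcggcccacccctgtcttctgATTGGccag
Tkt, chr14:30548981-30549130, plus strand: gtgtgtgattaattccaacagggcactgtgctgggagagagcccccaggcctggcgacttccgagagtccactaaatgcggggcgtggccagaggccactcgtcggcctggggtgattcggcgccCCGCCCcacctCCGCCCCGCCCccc
G6pdx, chrX:74428919-74428947, minus strand: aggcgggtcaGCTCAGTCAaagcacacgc

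The 8 enzymes had 9 promoter entries of 300 bases, and 0 of the 9 held CACGTG, the E-box core of the sites TFEB binds, against 7.15% of 32851 mouse promoter entries. The core TGACNNNGC was found in 2 of the 9, the G6pdx entry and a second Pgd start, against 12.4% of all entries. GC boxes were found in 7 of the 9 and CCAAT boxes in 4 of the 9, against 35.7% and 37.4% of all entries. Motif matches describe letters in these windows and say nothing of factor binding.

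**Figure D1:**
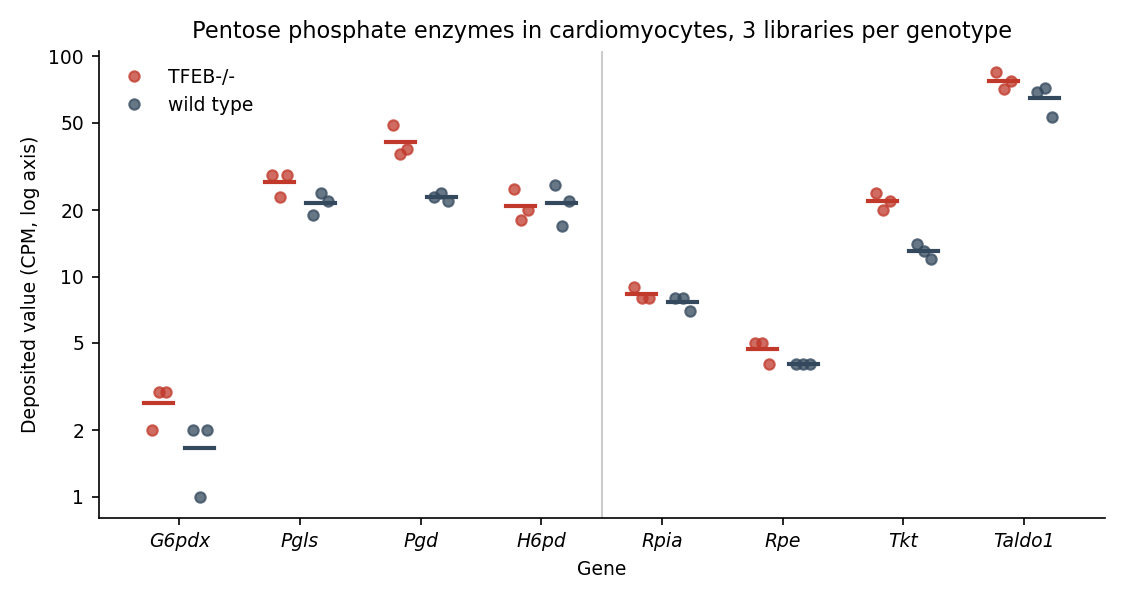
Deposited values (CPM, log axis) of the 8 pentose phosphate enzymes, with 1 point per library, a bar at the mean of 3, and TFEB-/- left of wild type for each gene. The oxidative enzymes and H6pd stand left of the grey line. The TFEB-/- points of Pgd (36 to 49 CPM) and Tkt (20 to 24 CPM) lie above all their wild type points (22 to 24 and 12 to 14 CPM), while the points of the other 6 enzymes touch or overlap between genotypes.

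In the oxidative branch of the cytosol, the last enzyme was higher and the first steps did not pass. Pgd, 6-phosphogluconate dehydrogenase, makes ribulose 5-phosphate and the second NADPH of the branch (ENSMUSG00000028961, GRCm38 chromosome 4, 149149991 to 149166771, minus strand). It was at 49, 36 and 38 CPM in TFEB-/- libraries, against 23, 24 and 22 CPM in wild type libraries. Every TFEB-/- library lay above every wild type library, with TFEB-/- 1 the highest. Means were 41 ± 7 CPM in TFEB-/- and 23 ± 1 CPM in wild type (SD, n = 3 each), a log2 fold change of 0.81 (SE 0.13, limma adjusted p = 0.0470), or 0.57 above the median of all genes. With median ratio scaling the log2 fold change was 0.57 (adjusted p = 0.0306), and with CPM recomputed without mitochondrial transcripts 0.59 (adjusted p = 0.0421). The call was lost with no filter (adjusted p = 0.0517), with quantile normalization (0.0595), with the replicate block (0.117) and with the block and median ratio scaling together (0.0732). It held without TFEB-/- 1 (adjusted p = 0.0326) and was lost without TFEB-/- 2 (0.0700), TFEB-/- 3 (0.151), wild type 1 (0.0997), wild type 2 (0.130) or wild type 3 (0.145). With 1 library left out the log2 fold change was 0.67 to 0.89.

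G6pdx, the X-linked glucose 6-phosphate dehydrogenase, catalyses the first and rate-controlling step (ENSMUSG00000031400, chromosome X, 74409483 to 74429194, minus strand). It was at 2, 3 and 3 CPM in TFEB-/-, against 2, 1 and 2 CPM in wild type. The groups touched at 2 CPM, and the difference between their means was 1 rounding step. The log2 fold change was 0.57 with a 95% interval from −0.13 to 1.26 (adjusted p = 0.259), and 0.38 with median ratio scaling (−0.31 to 1.07, adjusted p = 0.502), intervals that hold both 0 and the fold change of Pgd. On the deposited scale the G6pdx fold change lay 0.33 above the median of all genes. The whole gene lies within Ikbkg, an NF-kB pathway gene on the opposite strand, which was at 32, 33 and 29 CPM in TFEB-/- and 24, 20 and 18 CPM in wild type. This overlap is of whole gene spans, introns included, and overlap of exons was not examined. The library kit keeps strand, but whether the counting used it is not stated. Whether reads of the pair were mixed is therefore unknown. The same is unknown for other enzymes with overlapping spans. Rpe overlaps Kansl1l on the opposite strand over 558 bases. Kansl1l was at 7, 8 and 6 CPM in TFEB-/- and 10, 7 and 8 CPM in wild type. Pgls overlaps Fam129c on the same strand over 3445 bases, with Fam129c at 0 or 1 CPM in each library. Tkt overlaps Mir3076, at 0 CPM in each library.

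Pgls, 6-phosphogluconolactonase, opens the lactone between the 2 dehydrogenase steps (ENSMUSG00000031807, chromosome 8, 71592176 to 71601092, plus strand). Its values were 29, 23 and 29 CPM in TFEB-/-, against 19, 24 and 22 CPM in wild type. TFEB-/- 2 lay within the wild type range and the other TFEB-/- libraries above it. The log2 fold change was 0.31 (95% interval −0.05 to 0.67, adjusted p = 0.254) and 0.07 with median ratio scaling (−0.29 to 0.44). On the deposited scale it lay 0.07 above the median of all genes.

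H6pd carries out the first 2 oxidative steps inside the endoplasmic reticulum, where its NADPH is known to serve 11-beta-hydroxysteroid dehydrogenase (ENSMUSG00000028980, chromosome 4, 149979475 to 150009023, minus strand). It was at 25, 18 and 20 CPM in TFEB-/-, against 26, 17 and 22 CPM in wild type. Both groups covered nearly the same range, which makes H6pd the enzyme with the lowest fold change of the 8. The log2 fold change was −0.04 (95% interval −0.57 to 0.49, adjusted p = 0.961), or −0.27 relative to the median of all genes, and its sign turned when TFEB-/- 2 (0.07) or wild type 1 (0.10) was left out.

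Taken within each library, Pgd over H6pd was 1.96, 2 and 1.9 in TFEB-/-, against 0.885, 1.41 and 1 in wild type. Pgd over Pgls was 1.69, 1.57 and 1.31 in TFEB-/-, against 1.21, 1 and 1 in wild type. Neither ratio overlapped between genotypes, and library scaling cancels out of both. These ratios are not corrected for length, were chosen after the values were seen, and carry no test.

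**Figure D2:**
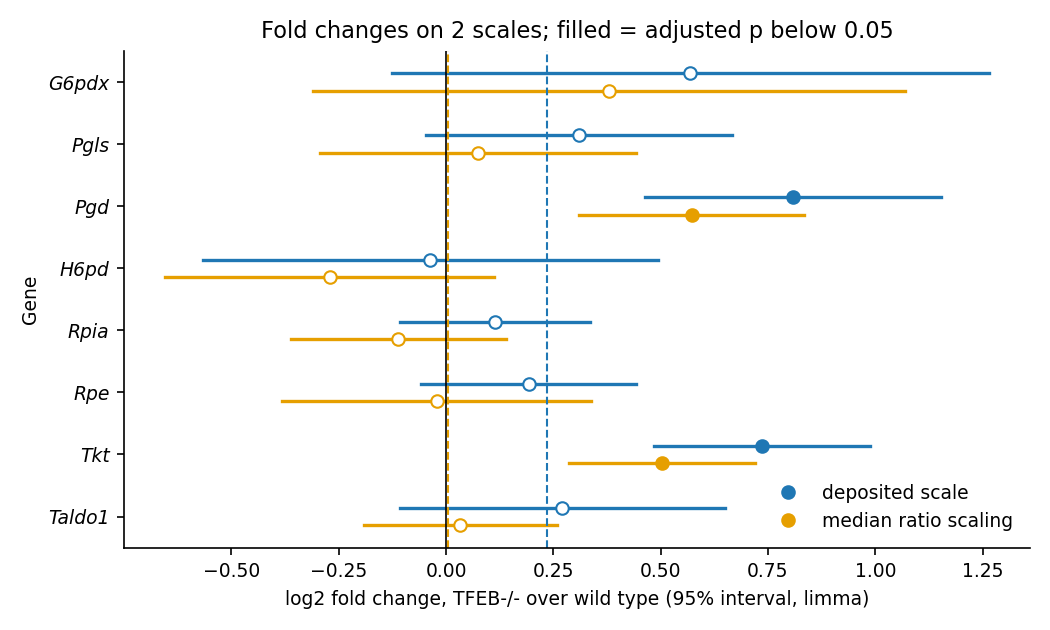
Log2 fold changes of the 8 enzymes, TFEB-/- over wild type, with 95% intervals from limma on the deposited scale (blue) and after median ratio scaling (orange). Dashed lines mark the median of all tested genes on each scale (0.24 and 0.01), and filled points have an adjusted p below 0.05. Pgd and Tkt are filled on both scales, and the intervals of the other 6 cross 0.

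In the non-oxidative branch Tkt was higher and the isomerase, the epimerase and the transaldolase did not pass. Tkt, transketolase, uses thiamine diphosphate to move carbon units between sugar phosphates and so links the pathway to glycolysis (ENSMUSG00000021957, chromosome 14, 30548359 to 30574720, plus strand). Its values were 24, 20 and 22 CPM in TFEB-/- libraries, against 14, 13 and 12 CPM in wild type libraries. All TFEB-/- values lay above all wild type values, and neither group spread over more than 4 CPM. Means were 22 ± 2 CPM in TFEB-/- and 13 ± 1 CPM in wild type (SD, n = 3 each), a log2 fold change of 0.74 (SE 0.10, limma adjusted p = 0.0267), or 0.50 above the median of all genes. With median ratio scaling it was 0.50 (adjusted p = 0.0241), and without mitochondrial transcripts 0.52 (adjusted p = 0.0280). The call held without TFEB-/- 2 (adjusted p = 0.0412) and was lost without TFEB-/- 1 (0.0887), TFEB-/- 3 (0.129), wild type 1 (0.0512), wild type 2 (0.101) or wild type 3 (0.0905), with log2 fold changes from 0.67 to 0.80. It was also lost with the replicate block (0.0875) and with the block and median ratio scaling together (0.0620).

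Taldo1, transaldolase, is the other carbon-transferring enzyme of the branch (ENSMUSG00000025503, chromosome 7, 141392199 to 141402968, plus strand). Its values were 85, 71 and 77 CPM in TFEB-/-, against 69, 72 and 53 CPM in wild type. TFEB-/- 2 lay just under wild type 2, so the groups overlapped. The log2 fold change of 0.27 (95% interval −0.11 to 0.65, adjusted p = 0.306) was 0.04 above the median of all genes. Within each library, Taldo1 over Tkt was 3.54, 3.55 and 3.5 in TFEB-/-, against 4.93, 5.54 and 4.42 in wild type. It was lower in every TFEB-/- library than in any wild type library, again untested and chosen after the values were seen.

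Rpia, the isomerase that makes ribose 5-phosphate, and Rpe, the epimerase that makes xylulose 5-phosphate, showed the smallest positive fold changes. Rpia (ENSMUSG00000053604, chromosome 6, 70765720 to 70792232, minus strand) was at 9, 8 and 8 CPM in TFEB-/-, against 8, 8 and 7 CPM in wild type. Rpe (ENSMUSG00000026005, chromosome 1, 66700831 to 66719805, plus strand) had 5, 5 and 4 CPM in TFEB-/-, against 4 CPM in each wild type library. The groups shared at least 1 value in each gene, and their means lay less than 1 CPM apart. The log2 fold changes were 0.11 for Rpia (95% interval −0.11 to 0.33, adjusted p = 0.453) and 0.19 for Rpe (−0.06 to 0.44, adjusted p = 0.277), and both signs turned with median ratio scaling (−0.11 and −0.02). Relative to the median of all genes on the deposited scale, Rpia was at −0.12 and Rpe at −0.04.

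Summed over the 8 enzymes, the values came to 228, 184 and 201 CPM in TFEB-/-, against 165, 163 and 144 CPM in wild type. The sums did not overlap, and the log2 ratio of the group means was 0.38. Median ratio scaling brought it to 0.13 and removal of mitochondrial transcripts to 0.15. The cytosolic oxidative enzymes G6pdx, Pgls and Pgd summed to 70.7 ± 9.02 CPM in TFEB-/- and 46.3 ± 2.52 CPM in wild type, while Rpia, Rpe, Tkt and Taldo1 summed to 112.7 ± 9.61 CPM in TFEB-/- and 89.3 ± 11.6 CPM in wild type. The oxidative sum over the non-oxidative sum was 0.650, 0.596 and 0.631 in TFEB-/-, against 0.463, 0.505 and 0.605 in wild type, and these ranges overlapped through wild type 3.

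Levels of different enzymes can be set beside each other only per transcript length, here as CPM per kb of the longest protein-coding transcript in GENCODE M21. On that scale Taldo1 was the highest at 57.0 ± 5.16 in TFEB-/- and 47.5 ± 7.5 in wild type, and G6pdx the lowest at 1.01 ± 0.218 in TFEB-/- and 0.628 ± 0.218 in wild type. Pgls followed Taldo1 (25.4 ± 3.26 in TFEB-/-, 20.4 ± 2.37 in wild type), then Pgd (18.5 ± 3.16 in TFEB-/-, 10.4 ± 0.451 in wild type). In wild type H6pd (4.57 ± 0.950), Rpia (4.19 ± 0.316) and Tkt (4.03 ± 0.310) were not apart beyond their spread. In TFEB-/- Tkt (6.83 ± 0.621) stood above Rpia (4.56 ± 0.316) and H6pd (4.43 ± 0.760). Rpe was at 1.72 ± 0.213 in TFEB-/- and 1.47 in wild type. This order depends on the transcript taken. Per kb of the shortest coding transcript H6pd would be at 32.3 in TFEB-/- and 33.3 in wild type, and Tkt at 13.6 in TFEB-/- and 8.03 in wild type, above Rpia with its single coding transcript. G6pdx would be at 2.13 in TFEB-/- and 1.33 in wild type, and Rpe at 1.73 in TFEB-/- and 1.49 in wild type, so that Rpe would be the lowest in TFEB-/-.

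On the deposited scale, summed markers of some other cell types differed between genotypes. The 7 macrophage markers, of which the pan-leukocyte gene Ptprc was at 0 in every library, summed to 33 to 37 CPM in TFEB-/- and 14 to 22 CPM in wild type. The 6 smooth muscle and pericyte markers summed to 270 to 365 CPM in TFEB-/- and 213 to 257 CPM in wild type. Neither pair of ranges overlapped on the deposited scale, and their part in the higher Pgd and Tkt was not tested. Marker sums were not compared after median ratio scaling, which divides by 1.19, 1.02 and 1.06 in TFEB-/- and 1.02, 0.94 and 0.82 in wild type. Which sums overlap can change on that scale. The endothelial (214 to 232 CPM in TFEB-/-, 220 to 323 in wild type), fibroblast (112 to 150 in TFEB-/-, 98 to 120 in wild type) and erythroid sums (6 to 10 in TFEB-/-, 5 to 35 in wild type) overlapped, those of 4 adipocyte markers reached 2 CPM in TFEB-/- and 0 in wild type, and 4 neutrophil markers were at 0 throughout. In such bulk samples fewer cells of a type and less RNA per cell cannot be told apart.

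**Figure D3:**
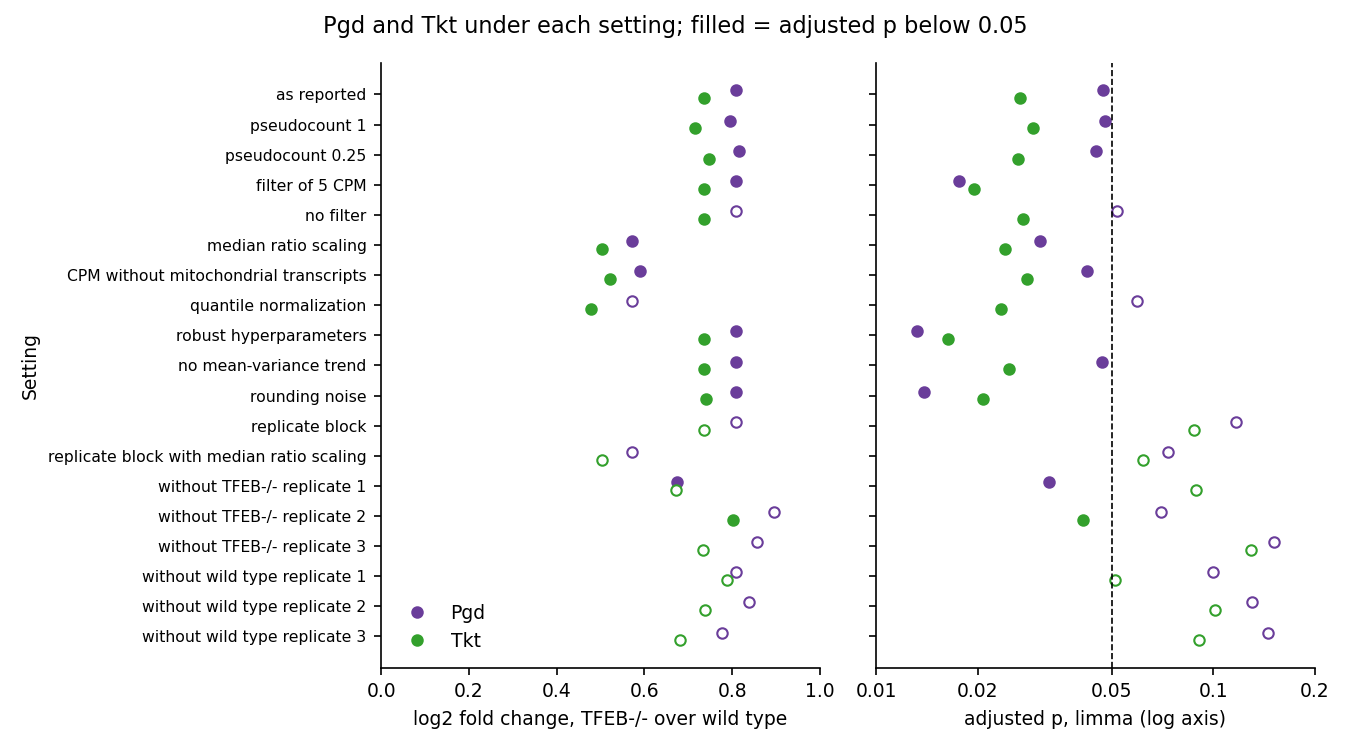
Log2 fold change (left) and limma adjusted p (right, log axis) of Pgd and Tkt as reported and under 18 alternative settings, filled where the adjusted p is below 0.05 (dashed line). Both fold changes stay above 0 in every setting. Pgd passed in 9 of 18 alternatives and Tkt in 11 of 18, and most lost calls are those with 1 library left out or a replicate block.

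Relatives and side enzymes of the pathway showed no called change. The relatives G6pd2, Tktl1, Tktl2 and Prps1l1 were listed at 0 in all 6 libraries. Of 13 side enzymes and ribose phosphate users, 9 were tested and 0 passed the limma threshold, and 3 had an unadjusted p below 0.05, against 23.3% of all tested genes. Tigar, a fructose bisphosphatase known to divert glucose 6-phosphate into the pathway, was the most abundant at 75, 66 and 68 CPM in TFEB-/-, against 60, 58 and 53 CPM in wild type (log2 fold change 0.29, adjusted p = 0.124, and 0.05 with median ratio scaling). Prps1, which turns ribose 5-phosphate into the nucleotide precursor PRPP, was at 19, 22 and 21 CPM in TFEB-/-, against 21, 20 and 17 CPM in wild type (log2 fold change 0.10, adjusted p = 0.589, and −0.14 with median ratio scaling). The list median was 0.29, against 0.24 for all genes.

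Among 11 other NADPH sources and NAD kinases, 1 was higher and 0 were lower, and that 1 was the only gene with an unadjusted p below 0.05. Me2, a mitochondrial malic enzyme that works mainly with NAD, was at 13, 10 and 13 CPM in TFEB-/-, against 5 CPM in each wild type library (log2 fold change 1.17, SE 0.12, limma adjusted p = 0.0118). It passed in 13 of 18 alternatives. It did not without TFEB-/- 1, TFEB-/- 3, wild type 2 or wild type 3, nor with the replicate block (adjusted p = 0.0557 to 0.082). The other 10 did not pass, among them Idh2, the NADP-dependent isocitrate dehydrogenase of mitochondria, at 2216, 932 and 1547 CPM in TFEB-/- against 1424, 1364 and 1185 CPM in wild type. The list median of 0.16 lay under the 0.24 of all genes.

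Of 12 NADPH-using reductases and synthases, 11 were tested and 0 passed in limma. Of the 11, 7 had an unadjusted p below 0.05, against 23.3% of all tested genes. A log2 fold change above 0 was found in 10 of the 11, against 9921 of all 12437 tested genes. With median ratio scaling 1 was higher and 1 was lower. On that scale 3 had an unadjusted p below 0.05, against 2770 of the 12437. Akr1b3, aldose reductase, was at 179, 158 and 177 CPM in TFEB-/-, against 241, 271 and 211 CPM in wild type (log2 fold change −0.49, adjusted p = 0.0918, and −0.72 with an adjusted p of 0.014 under median ratio scaling). Por, the electron donor of microsomal cytochrome P450 enzymes, was at 66, 57 and 62 CPM in TFEB-/-, against 46, 49 and 46 CPM in wild type (log2 fold change 0.39, adjusted p = 0.0607, and 0.15 with an adjusted p of 0.455 under median ratio scaling). Fasn, fatty acid synthase, was at 57, 43 and 41 CPM in TFEB-/-, against 25, 25 and 17 CPM in wild type (log2 fold change 1.06, adjusted p = 0.0697, and 0.83 with an adjusted p of 0.0146 under median ratio scaling). The groups did not overlap for Akr1b3, which was lower in TFEB-/-. Nor did they for Por and Fasn, or for Gsr, Txnrd3 and Blvrb of the same list, all of them higher in TFEB-/-. Every TFEB-/- value lay above every wild type value in 21.2% of all tested genes. The share for the lower direction was not counted. Fasn, Gsr, Txnrd3 and Blvrb were named after their values were seen.

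Glycolytic enzymes that share intermediates with the pathway moved in both directions. Of 10 tested, 1 was higher, 1 was lower and 8 did not pass. In limma 4 of the 10 had an unadjusted p below 0.05, against 23.3% of all tested genes. A log2 fold change above 0 was seen in 8 of the 10, against 9921 of all 12437 tested genes. With median ratio scaling it was seen in 5 of the 10, against 6303 of the 12437. That scaling gave 2 higher and 1 lower. Pfkp, the platelet-type phosphofructokinase, was at 108, 88 and 93 CPM in TFEB-/-, against 39, 38 and 28 CPM in wild type (log2 fold change 1.46, SE 0.16, limma adjusted p = 0.0165). Without TFEB-/- 1, TFEB-/- 3 or wild type 2, and with the replicate block, it did not pass (adjusted p = 0.0584 to 0.102). Fbp2, the muscle fructose 1,6-bisphosphatase that works against phosphofructokinase, was at 11, 9 and 9 CPM in TFEB-/-, against 22, 17 and 19 CPM in wild type (log2 fold change −0.96, SE 0.13, adjusted p = 0.0314). It did not pass when any 1 library was left out (adjusted p = 0.0594 to 0.139). None of the 11 genes of the NRF2 list, NRF2 being a known activator of pentose phosphate genes, passed in limma, and 5 had an unadjusted p below 0.05, against 23.3% of all tested genes. Its most abundant members were the ferritin chain Fth1 (1756, 1581 and 1624 CPM in TFEB-/- against 1388, 1504 and 1060 CPM in wild type, log2 fold change 0.34, adjusted p = 0.254) and the peroxiredoxin Prdx1 (285, 306 and 272 CPM in TFEB-/- against 242, 260 and 218 CPM in wild type, log2 fold change 0.26, adjusted p = 0.176). The NRF2 list median was 0.28, against 0.24 for all genes.

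**Figure D4:**
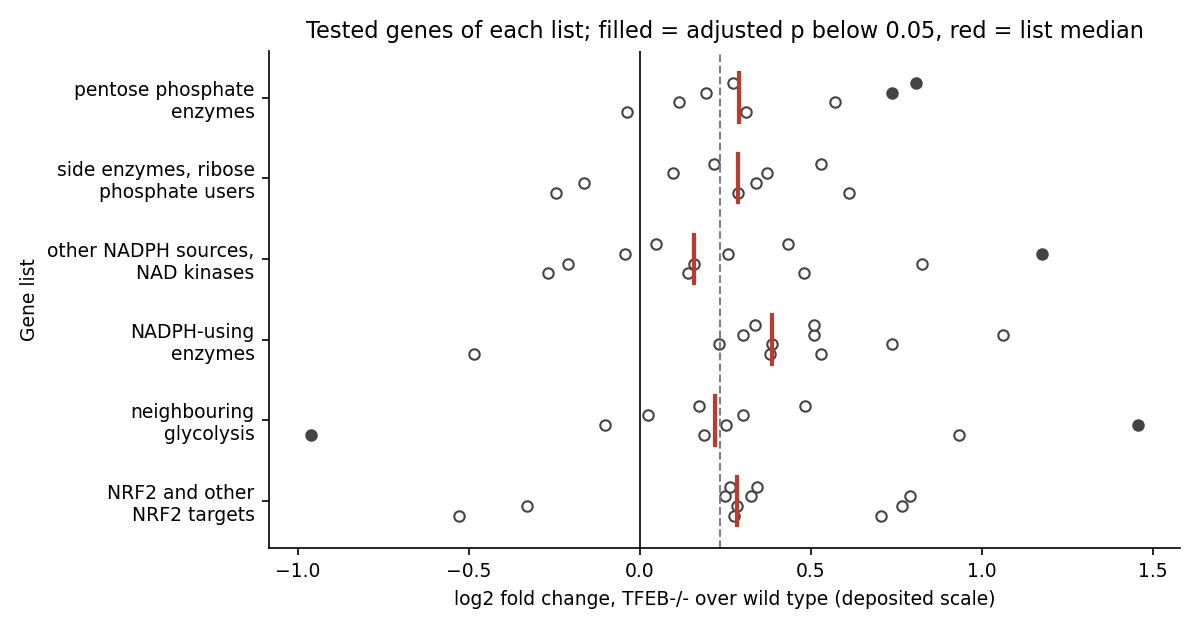
Log2 fold changes, TFEB-/- over wild type, of every tested gene in the pentose phosphate list and the 5 companion lists, filled where the limma adjusted p is below 0.05, with list medians in red. The dashed line is the median of all tested genes (0.24). Filled points are Pgd and Tkt, Me2, Pfkp on the right and Fbp2 on the left, and the list medians lie between 0.16 and 0.39.

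The genes whose profile over the 6 libraries was most like that of Tkt, the enzyme with the smallest p, were Mtss1l, Tbrg1 and Tom1l2. Likeness was the root mean square distance between log2 profiles centred on their means, over 4373 genes that averaged 20 CPM or more, and it was 0.04, 0.05 and 0.06 on the log2 scale. Mtss1l was at 73, 61 and 67 CPM in TFEB-/-, against 45, 42 and 36 CPM in wild type. By the same measure Pgd was at 0.10 from Tkt, Taldo1 at 0.25, Pgls at 0.26 and H6pd at 0.42.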

How the data were processed

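For each gene the deposited table gives 1 number per library, a score taken to be CPM that the authors rounded to whole numbers. Kallisto and CPM are known from the name of the table. Per the submitters' processing notes the build was GRCm38, and the tools named, without version or role, were DESeq2, edgeR, RSEM, Salmon, STAR, kallisto, StringTie and HISAT2. Scaling by length is not stated. Overlapping mitochondrial genes gave values that followed length in direction but not in size. The value of mt-Nd4l was 13.1% of that of mt-Nd4, with 21.6% of its length. That of mt-Atp8 was 7.75% of that of mt-Atp6, with 30.0% of its length. Rounding hides up to 0.5 CPM on either side, depth per library is unknown, and no counting interval can be given.

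Of 46517 entries, 26 names turned into dates were restored by Ensembl ID through GENCODE M21, and entries sharing a symbol were summed. The 12437 genes that reached 1 CPM in 3 or more libraries were fitted with limma 3.58.1 (R 4.3.3) on log2(CPM + 0.5), genotype as the only term, eBayes with a mean-variance trend, two-sided p adjusted by Benjamini-Hochberg over all tested genes, threshold 0.05. The added 0.5 understates fold changes of low genes. A test on simulated data with known changes preceded it. Over 3 simulations together it recovered 17 of 150 genes changed 1.5-fold (11.3%) and 65 of 150 changed 2-fold (43.3%). Of 150 genes changed 4-fold it recovered 147 (98%), and of 150 changed 8-fold it recovered 150. On average 52.7 unchanged genes were called in each single simulation, out of 12437 fitted. Such false calls were a larger share of all calls made than the adjusted p threshold of 0.05 stands for. A call can thus be false, and a gene that did not pass can still differ by 1.5-fold or 2-fold. An exact permutation test of 3 against 3 cannot go below 0.1 and was not used for calls. Alternatives were 18 settings. Named companion genes are those past the threshold in a list, or its 2 most abundant tested members where none passed. The 3 genes closest to the enzyme with the smallest p are named as well. Idh2, Ikbkg, Fasn, Gsr, Txnrd3 and Blvrb were named after their values were seen. Members, lists and tests were chosen with earlier results of these data known. Promoter sequences are from RefSeq (GRCm38.p6), where all 8 enzymes matched by symbol.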

Additional observations from a re-analysis of the deposited data

How the results depend on the processing

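Both calls kept their direction in all 18 alternatives, but not always their side of the threshold. The count of higher pentose phosphate enzymes was 2 as reported, 1 with no filter and with quantile normalization, 0 with the replicate block alone or with median ratio scaling added, and 0 to 1 with any 1 library left out. The log2 fold change of Pgd was 0.81 with no filter (adjusted p = 0.0517), 0.57 with quantile normalization (0.0595), 0.81 with the block (0.117) and 0.57 with the block and median ratio scaling (0.0732), and 0.67 to 0.89 with 1 library left out. That of Tkt was 0.74 with the block (0.0875), 0.50 with the block and scaling (0.0620), and 0.67 to 0.80 with 1 library left out. Leaving out a library also leaves fewer samples, and the cause of the other lost calls was not tested. The log2 ratio of summed levels was 0.13 with median ratio scaling and 0.15 without mitochondrial transcripts. Signs turned for Rpia (−0.11 with median ratio scaling, alike with median ratio scaling and the block together, −0.10 without mitochondrial transcripts, −0.12 with quantile normalization), Rpe (−0.022, −0.022, −0.0099 and −0.082 in the same order), Prps1 (−0.14, −0.14, −0.12 and −0.16) and H6pd (−0.20 to 0.10 with 1 library left out, above 0 without TFEB-/- 2 or wild type 1), none of them past the threshold.

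Same-numbered libraries did not deviate together throughout (correlations of 0.14, −0.05 and 0.09 across genes), and not every library correlated best with its own number, so the replicate block tests a shared number only. Over all genes the block gave 159 higher and 26 lower, with median ratio scaling added 256 and 121. Higher genes numbered 780 with robust hyperparameters and 806 with rounding noise, lower genes 200 with median ratio scaling, 188 without mitochondrial transcripts and 172 with quantile normalization. Leave-one-out counts were 154 to 406 higher and 38 to 87 lower.

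Of the companion lists, the side enzymes had 1 higher with quantile normalization. NADPH-using enzymes had 2 higher with a filter of 5 CPM, quantile normalization, robust hyperparameters and rounding noise, 1 higher with median ratio scaling, without mitochondrial transcripts and with the block and scaling, and 1 lower with these 3 and quantile normalization. Glycolytic enzymes had 2 higher with a filter of 5 CPM, median ratio scaling, robust hyperparameters, rounding noise and without mitochondrial transcripts, 0 with the block, and 0 to 1 higher and 0 lower with 1 library left out. NRF2 genes had 1 higher with a filter of 5 CPM and 2 with robust hyperparameters and rounding noise. Other NADPH sources had 0 with the block and 0 to 1 with 1 library left out. G6pdx and Rpe were not tested at the filter of 5 CPM.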
